A study of Mus musculus with 8 samples.

Results

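When light has switched a rod photoreceptor on, a dedicated set of proteins switches it off again and restores its cyclic GMP (cGMP). The transcripts of 10 such genes were read from whole-retina arrays of Lpcat1 wildtype (WT) and Lpcat1 knockout (KO) mice. They were Sag and Grk1, which act on rhodopsin, and Rcvrn, which acts on the product of Grk1, then Rgs9, Gnb5 and Pdc, which act on the G protein transducin, and Gucy2e, Gucy2f, Guca1a and Guca1b, which remake cGMP. The members were a list of gene names, drawn up with earlier results of these data known, and every noncontrol probe whose RefSeq transcript carried one of these symbols was used. The array held 16 such probes among 55681, and the 10 genes stood among 20018 with a symbol. A single probe represented 6 of the genes, 2 probes each represented Grk1 and Guca1b, and 3 probes each represented Gucy2e and Rgs9. All 16 probes were well above background on all 8 arrays and all passed the filter on dim probes, so no member was lost.

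Total RNA of the whole retina came from 2-week-old C57BL/6 mice, with 4 Lpcat1 WT and 4 Lpcat1 KO samples, each hybridised in 1 colour to 1 array. Lpcat1 encodes an acyltransferase that builds saturated phosphatidylcholine, and the KO mice lack it in every tissue, so a difference can arise in any retinal cell. Per the methods of the study, the line was made on a C57BL6/N background and bred to C57BL6/J to drop the rd8 allele of Crb1, and mice homozygous for rd8 were not used. The labels name no treatment. The labels do not say that the replicates of a group were separate animals, so p-values measure the spread between these samples. Whole tissue was measured, so fewer cells of a type and less RNA per cell cannot be told apart.

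In darkness a rod keeps cGMP-gated channels open, and light-activated rhodopsin, working through transducin and phosphodiesterase, lowers cGMP and closes them. Recovery needs every active step to be quenched. Rhodopsin is phosphorylated by rhodopsin kinase (Grk1) and capped by rod arrestin (Sag), while the calcium sensor recoverin (Rcvrn) restrains the kinase at high calcium. Transducin is turned off when RGS9, bound to its obligate partner Gβ5 (Gnb5), speeds the hydrolysis of its GTP, and phosducin (Pdc) binds the βγ subunits of transducin. As calcium falls, the guanylate cyclase activating proteins GCAP1 (Guca1a) and GCAP2 (Guca1b) stimulate the retinal guanylate cyclases GC-E (Gucy2e) and GC-F (Gucy2f), and cGMP returns.

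Promoter sequence is shown for Sag and Gucy2e, the 2 members called lower in KO by the limits given below. It is also shown for Guca1a, the member with the largest difference in the opposite direction. This choice was made after their values were seen. Each line gives the 250 bases before the start used for the gene in a promoter table from RefSeq (build GRCm38.p6), 5′ to 3′ along the gene. For all 3 genes RefSeq also places a start further upstream, so the window lies inside the annotated span of the gene, and the table does not name the transcript. Capitals mark 6-base matches on either strand to TAATCC (reverse GGATTA), the core letters bound by the photoreceptor homeobox factors CRX and OTX2, and to TGCTGA (reverse TCAGCA), core letters of the site bound by the rod factor NRL.
Sag, chr1:87803430-87803679, plus strand: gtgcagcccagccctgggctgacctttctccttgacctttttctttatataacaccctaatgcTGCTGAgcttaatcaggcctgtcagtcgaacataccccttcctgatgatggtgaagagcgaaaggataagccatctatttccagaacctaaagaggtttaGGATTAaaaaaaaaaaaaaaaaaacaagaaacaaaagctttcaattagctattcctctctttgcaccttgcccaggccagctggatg
Gucy2e, chr11:69237023-69237272, minus strand: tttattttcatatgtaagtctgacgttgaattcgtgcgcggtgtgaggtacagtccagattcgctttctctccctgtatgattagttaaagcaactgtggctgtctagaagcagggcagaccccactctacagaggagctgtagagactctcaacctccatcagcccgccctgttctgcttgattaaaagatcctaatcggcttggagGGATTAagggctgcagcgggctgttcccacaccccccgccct
Guca1a, chr17:47400607-47400856, minus strand: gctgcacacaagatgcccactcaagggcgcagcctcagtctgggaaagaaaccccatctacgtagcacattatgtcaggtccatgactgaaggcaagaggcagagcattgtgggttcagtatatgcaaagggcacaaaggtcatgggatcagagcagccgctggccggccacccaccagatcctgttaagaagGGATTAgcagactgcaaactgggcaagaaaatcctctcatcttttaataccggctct
The TAATCC letters began 87 bases before the start in Sag, 42 in Gucy2e and 57 in Guca1a. Sag also held TGCTGA, which began 187 bases before the start. Of the 10 members, 8 had an entry (Rcvrn and Guca1b had none), and 5 of these held TAATCC, the other two being Gucy2f and Gnb5. TAATCC occurred in 6.25% of all 32851 promoters of this length. TGCTGA occurred in 2 of the 8, Sag and Rgs9, against 16.1% of all promoters, and Sag was the 1 member with both motifs, against 0.962%. Promoters without the letters included those of Grk1 and Pdc. A match describes the letters in this window, and no binding was measured here.

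The arrays were first looked at as a whole. The Lpcat1 probe was lower in KO, at 72.5% of the WT signal (log2 difference -0.46, SE 0.04, limma adjusted p = 0.0036), so signal remained, and the place of the probe relative to the deleted part was not settled. Row 1 of the single slide carried the WT samples and row 2 the KO samples, so row and genotype cannot be told apart. A probe was called when its adjusted p was below 0.05 and its fold change exceeded 1.2, and this held for 992 of 33972 tested probes (2.92%), of which 522 were lower (1.54%) and 470 higher (1.38%) in KO. The split moved to 341 lower and 629 higher with cyclic loess, to 372 and 563 when the 75th percentile was taken over detected probes alone, and to 274 and 439 with normexp. Here and below, normexp means normexp background correction followed by quantile normalization. With so few arrays precision is limited throughout, and no two-sided exact permutation test could go below p = 0.0286.

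Among the members, Sag and Gucy2e were called lower in Lpcat1 KO retinas, and no member was called higher. The other 8 genes were not called. In all, 3 of the 16 member probes were called, all of them lower, against 2.92% of all tested probes in either direction, 1.54% lower and 1.38% higher. By gene, 2 of the 10 members were called, where 3.96% of 14939 tested genes were called (1.77% lower and 2.2% higher). With no fold minimum, 4 member probes had an adjusted p under 0.05, against 5.5% of all probes. The genotypes did not overlap at 10 of the 16 member probes (17.5% of all probes), with KO wholly below WT at 7 (11.4%) and wholly above it at 3 (6.05%). An unadjusted p under 0.05 was reached by 11 of the 16 probes, against 23.8% of all probes. Differences were below 0 for 12 of the 16 member probes, while 62% of all tested probes were also below 0. With 1 probe a gene, the brightest, the median difference of the members was -0.16, with 8 genes below 0 and 2 above, and that of all tested genes was -0.02. The member median ran from -0.17 to -0.13 when 1 array was left out, and it was -0.08 after quantile normalization and -0.07 with normexp. A level below is the log2 ratio of a probe's signal to the 75th percentile signal on its own array. A difference is KO minus WT in these log2 units, given with its standard error (SE) and its limma p-value, adjusted by Benjamini-Hochberg across every tested probe.

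**Figure D1:**
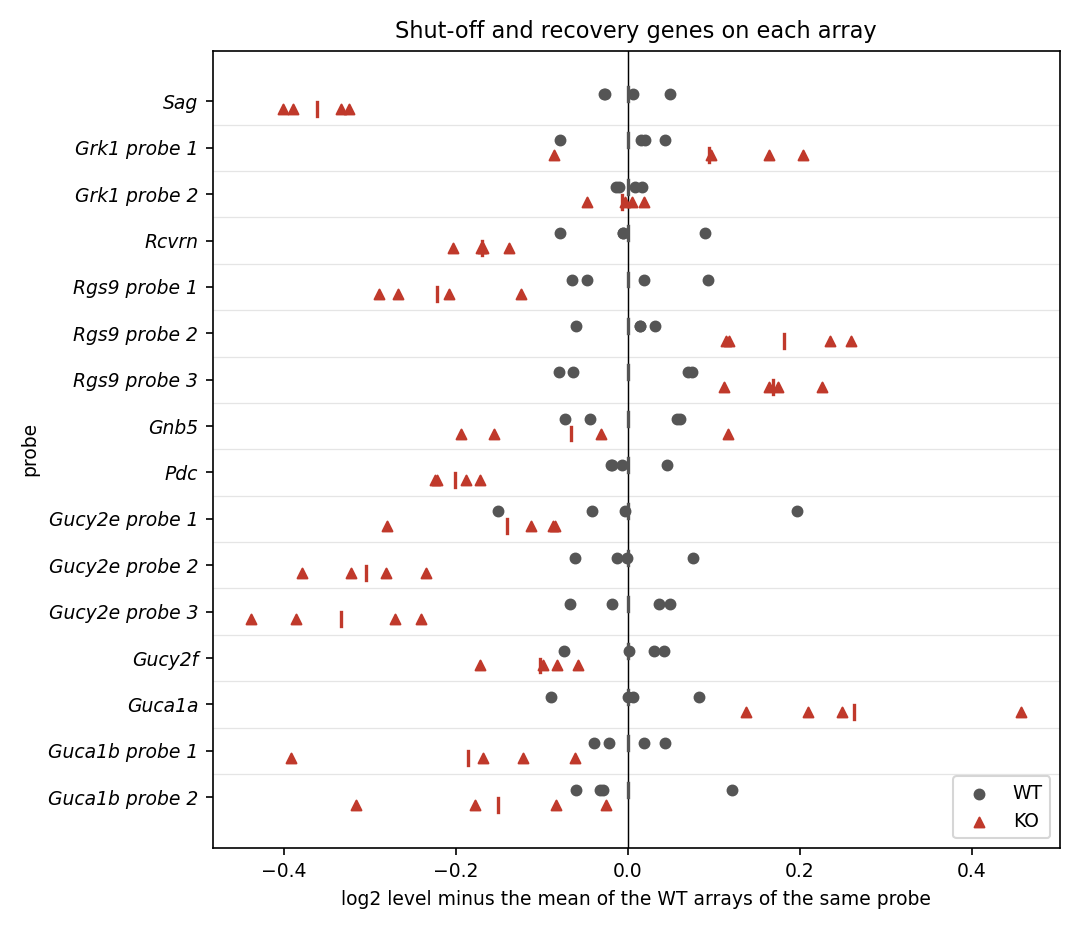
Log2 level of each of the 16 member probes on every array, minus the mean of the WT arrays of the same probe, with WT as grey circles, KO as red triangles and short bars for group means. Probes of a gene are numbered from the brightest. Sag shows the clearest gap between the genotypes, and Grk1 and Gnb5 overlap.

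The largest difference among the members was that of Sag, rod arrestin. Its level was 7.87, 7.79, 7.83 and 7.79 in the WT replicates 1 to 4, and 7.43, 7.42, 7.49 and 7.49 in the KO replicates 1 to 4. All KO values were low, and the gap between the groups was wide beside the spread within either. The signal in KO was 77.8% of that in WT, a difference of -0.36 (SE 0.04, limma adjusted p = 0.0052, 95% confidence interval -0.45 to -0.27). The call held in all 8 fits that left out 1 array, with adjusted p-values of 0.011 to 0.0265. It ended on the fold threshold, not on the p-value, with quantile normalization (-0.25, adjusted p = 0.0152) and with normexp (-0.22, adjusted p = 0.0136). Under those settings and cyclic loess (-0.27), Guca1a and the called Gucy2e probes differed by more than Sag.

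The kinase that acts before arrestin was not called. The brighter Grk1 probe read 5.45, 5.55, 5.55 and 5.57 in WT, and 5.44, 5.63, 5.69 and 5.73 in KO. The groups overlapped through KO replicate 1, the lowest of all, while the other KO replicates lay above every WT value. The difference was 0.09 (SE 0.07, adjusted p = 0.434), and its 95% interval ran from -0.06 to 0.25. It was 0.15 without KO replicate 1 (adjusted p = 0.109), 0.06 without KO replicate 4 (adjusted p = 0.656), 0.18 after quantile normalization (adjusted p = 0.156) and 0.17 with normexp (adjusted p = 0.198). The dimmer Grk1 probe read 2.15 to 2.18 in WT and 2.11 to 2.18 in KO, a difference of -0.01 (SE 0.03, adjusted p = 0.925, interval -0.08 to 0.07). A change of the size seen for Sag lay outside the interval of both Grk1 probes.

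Recoverin, the calcium sensor that acts on rhodopsin kinase, lay lower in KO without reaching the threshold. Rcvrn read 8.11, 8.03, 8.20 and 8.11 in WT and 7.97, 7.91, 7.94 and 7.94 in KO. The groups did not overlap, and the gap was small beside the spread of WT. The difference was -0.17 (SE 0.04, adjusted p = 0.0624). It moved to -0.03 (adjusted p = 0.757) after quantile normalization and to -0.05 (adjusted p = 0.566) with normexp.

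The transducin-quenching gene Rgs9 gave opposite differences at probes of its 2 RefSeq transcripts. The brightest probe, of one transcript, read 2.02, 1.86, 1.94 and 1.88 in WT and 1.80, 1.66, 1.72 and 1.63 in KO. It lay lower in every KO sample, by -0.22 (SE 0.05, adjusted p = 0.0524). The probes of the other transcript lay higher in every KO sample. The brighter of them read 0.25, 0.32, 0.32 and 0.34 in WT and 0.42, 0.57, 0.42 and 0.54 in KO, a difference of 0.18 (SE 0.05, adjusted p = 0.0671). The third probe read 0.22, 0.37, 0.23 and 0.37 in WT and 0.46, 0.52, 0.41 and 0.47 in KO, a difference of 0.17 (SE 0.05, adjusted p = 0.093). None of the 3 probes was called, and the gene therefore has no single direction here. Where the probes lie in the transcripts was not given, so which protein form each reports was not settled.

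Gnb5, whose product stabilises RGS9 and its relatives, differed little. It read 3.37, 3.40, 3.50 and 3.50 in WT and 3.25, 3.29, 3.41 and 3.56 in KO. The groups overlapped, with KO replicate 4 the highest of all 8. The difference was -0.07 (SE 0.07, adjusted p = 0.627), with an interval of -0.24 to 0.10. It was -0.13 without KO replicate 4 (adjusted p = 0.271) and -0.02 without KO replicate 1 (adjusted p = 0.874).

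Phosducin lay just under the fold threshold. Pdc read 7.47, 7.45, 7.45 and 7.52 in WT and 7.30, 7.25, 7.25 and 7.28 in KO. All KO values were lower, and both groups were tight. The signal in KO was 87% of that in WT, a difference of -0.20 (SE 0.04, adjusted p = 0.0228), so the p-value passed and the 1.2-fold minimum did not. When 1 array was left out, the limma adjusted p ran from 0.032 to 0.0702. This difference also depended on the scaling. The difference was -0.11 after quantile normalization (adjusted p = 0.124) and -0.09 after normexp (adjusted p = 0.236).

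Gucy2e, the main cyclase of photoreceptor outer segments, was lower in KO at 2 of its 3 probes. The middle probe read -0.32, -0.46, -0.40 and -0.41 in WT and -0.68, -0.78, -0.63 and -0.72 in KO. The dimmest read -0.72, -0.79, -0.84 and -0.74 in WT and -1.04, -1.21, -1.16 and -1.01 in KO. Both parted the genotypes with no overlap. The differences were -0.30 (SE 0.05, adjusted p = 0.0162) and -0.33 (SE 0.06, adjusted p = 0.0204), and the KO signals were 81% and 79.3% of those in WT.

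The brightest Gucy2e probe gave a smaller difference and was not called. It read 0.16, -0.04, -0.07 and -0.18 in WT and -0.12, -0.12, -0.31 and -0.15 in KO. The groups overlapped, with WT replicate 4 below most of the KO samples. The difference was -0.14 (SE 0.08, adjusted p = 0.33), with an interval of -0.33 to 0.04, and was -0.08 without WT replicate 1 (adjusted p = 0.543). The gene kept at least 1 called probe in every fit that left out 1 array. The middle probe lost its call without WT replicate 3 (adjusted p = 0.0507), and the dimmest lost its call in 5 of the 8 such fits. With no filter on dim probes, neither was called.

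The other cyclase, Gucy2f, read 0.44, 0.48, 0.37 and 0.47 in WT and 0.34, 0.38, 0.27 and 0.36 in KO. The groups overlapped, since WT replicate 3 lay just below KO replicate 2, although KO lay below WT at each replicate number. The difference was -0.10 (SE 0.04, adjusted p = 0.198), and -0.05 with normexp (adjusted p = 0.56).

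The activators of the cyclases differed in sign. Guca1a, encoding GCAP1, read 4.37, 4.46, 4.47 and 4.54 in WT and 4.60, 4.71, 4.67 and 4.92 in KO. Every KO value was above every WT value, with KO replicate 4 the farthest. The signal in KO was 120.0% of that in WT, a difference of 0.26 (SE 0.07, adjusted p = 0.0744), so Guca1a passed the fold minimum and missed the p-value. It was called with normexp (0.31, adjusted p = 0.0196), cyclic loess (0.32, adjusted p = 0.0473), array weights, and limma with a trend and robust eBayes, and not in any fit that left out 1 array.

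Guca1b, encoding GCAP2, is the neighbour of Guca1a on the chromosome. Its brighter probe read 6.83, 6.82, 6.88 and 6.90 in WT and 6.46, 6.69, 6.73 and 6.80 in KO. KO lay below WT without overlap, and KO replicate 1 was the lowest by a wide step. The difference was -0.19 (SE 0.07, adjusted p = 0.159), and -0.12 without that replicate (adjusted p = 0.162). The dimmer probe read 4.41, 4.41, 4.38 and 4.56 in WT and 4.12, 4.26, 4.36 and 4.42 in KO, a difference of -0.15 (SE 0.07, adjusted p = 0.25) and of -0.10 without KO replicate 1. Neither Guca1b probe was called.

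**Figure D2:**
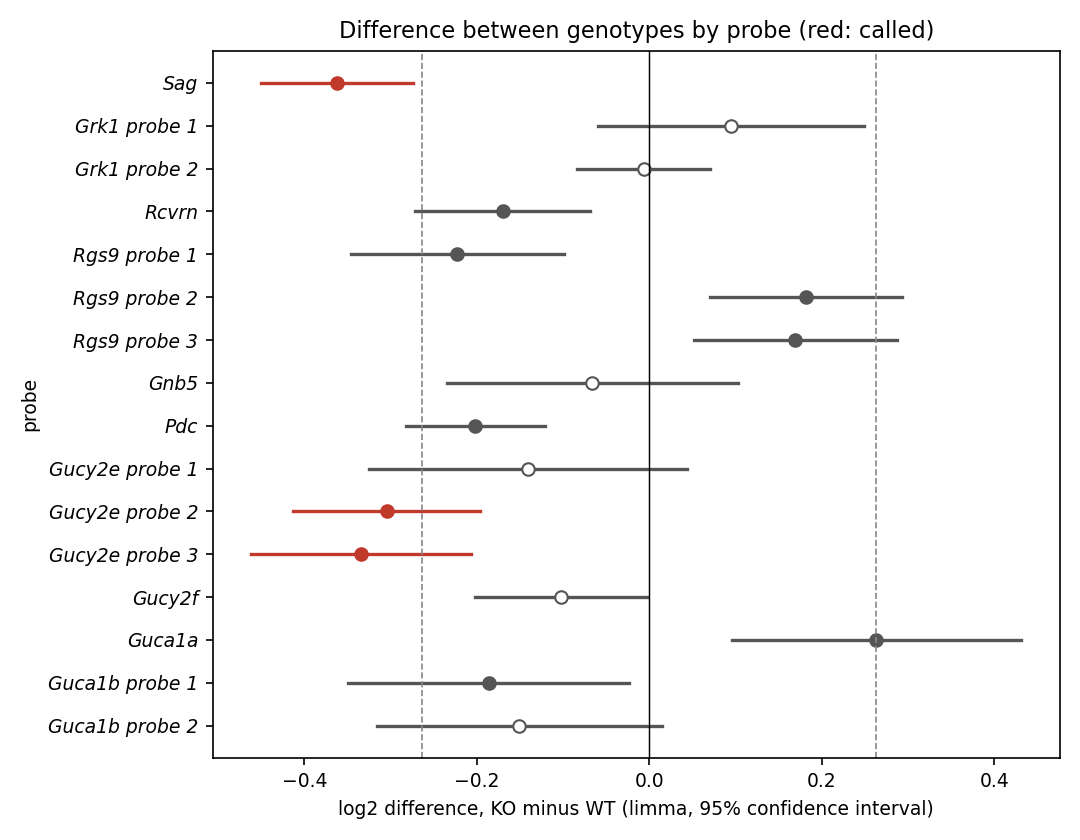
Log2 difference of KO minus WT for each member probe (circle) with its 95% confidence interval from limma. Called probes are red, open circles mark overlapping genotypes and dashed lines mark a 1.2-fold difference. The 3 called probes, of Sag and Gucy2e, lie at -0.36, -0.30 and -0.33, and Guca1a lies on the upper dashed line at 0.26.

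To ask whether genes with linked roles differed by unequal amounts, 6 pairs of functional partners or of related forms of one protein were compared, using the difference between the brightest probes of each pair on every array. Sag and the cone arrestin Arr3 moved apart the most. Arr3 rose in KO by 0.46 (SE 0.04, adjusted p = 0.0024), and Sag relative to Arr3 was -0.82 in KO against WT, with no overlap (two-sided exact permutation p = 0.0286, adjusted p = 0.0857 over the 6 pairs). Guca1a relative to Guca1b was 0.45, also without overlap (exact permutation p = 0.0286, adjusted p = 0.0857). In both pairs the genes already parted the genotypes in opposite directions one by one, so the pair had to part them too. Neither passed 0.05 after adjustment, and with 4 arrays per genotype a pair could pass only if at least 4 of the 6 pairs reached the smallest p.

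Smaller differences were found in the other pairs, whose groups overlapped. Rcvrn relative to Grk1 was -0.26 (exact permutation p = 0.0571, adjusted p = 0.0857). Pdc relative to Gnb1, the transducin β subunit that phosducin binds, was 0.09 (exact permutation p = 0.0571, adjusted p = 0.0857), since Gnb1 was itself lower by -0.30. Rgs9 relative to Gnb5 was -0.16 (exact permutation p = 0.257) and Gucy2e relative to Gucy2f was -0.04 (exact permutation p = 0.686). With the mean of all probes of a gene in place of the brightest, 4 pairs reached an adjusted p of 0.0429, namely Sag with Arr3, Guca1a with Guca1b, Rcvrn with Grk1 and Gucy2e with Gucy2f (-0.16). Each of these was at the smallest p the permutation allows, so the adjusted value follows from their number. The pairs were chosen with earlier results of these data known, so no conclusion is drawn from this value. Rgs9 relative to Gnb5 then changed sign to 0.11 (adjusted p = 0.343).

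The other arm of the response, the rod activation cascade, was read beside the members. Of the 8 genes reported, 1 fell and none rose. Gnb1 fell by 0.30 (SE 0.04, adjusted p = 0.0097), its dimmer probe giving -0.21. Another 3 genes passed the p-value and not the fold, namely the phosphodiesterase inhibitory subunit Pde6g (-0.24, adjusted p = 0.0196) and the channel subunits Cnga1 (-0.24, adjusted p = 0.02) and Cngb1 (-0.23, adjusted p = 0.0433). The catalytic subunits Pde6a and Pde6b gave -0.06 and -0.19. The transducin subunits Gnat1 (-0.04) and Gngt1 (0.06) overlapped between the genotypes. The median of these 8 genes was -0.21, beside -0.16 for the members and -0.02 for all tested genes, and it moved to -0.10 with normexp.

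Another 10 genes of shut-off and recovery had a median of -0.04, with 5 below 0 and 5 above, and the 2 called were higher in KO. This median turned positive with cyclic loess (0.02), quantile normalization (0.02) and normexp (0.01). One was Arr3, whose dimmer probe also rose, by 0.53 (SE 0.06, adjusted p = 0.007). The other was Slc24a2, the cone sodium/calcium-potassium exchanger, called at the dimmest of its 3 probes (0.41, SE 0.08, adjusted p = 0.0328) with 0.11 and 0.17 at the others. The rod exchanger Slc24a1 gave 0.01. Rd3, which restrains the retinal cyclases, gave 0.26 (adjusted p = 0.0421), and the photoreceptor protein phosphatase Ppef2 gave -0.24 (adjusted p = 0.0242), both short of the fold minimum. Rgs9bp, the membrane anchor of RGS9, gave 0.01 and -0.12 at its 2 probes. Impdh1 and Guk1, enzymes of guanine nucleotide supply, each gave -0.13, and the calmodulin genes Calm2 and Calm3 gave -0.08 and -0.12 at their brightest probes.

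The relatives of the members in their own protein families showed few calls. Among 4 arrestins, Sag fell and Arr3 rose. None of 6 G protein-coupled receptor kinases and none of 9 neuronal calcium sensors, Rcvrn, Guca1a and Guca1b included, was called. Of 7 membrane guanylate cyclases, 4 were tested and Gucy2e was the only one called. Among 7 genes of the R7 RGS proteins and their partners, Rgs7bp was called at 1 of its 3 probes (0.39, SE 0.04, adjusted p = 0.0045), while its brightest probe gave -0.22. Of the phosducin family, 3 of 4 genes were tested, and no gene was called.

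**Figure D3:**
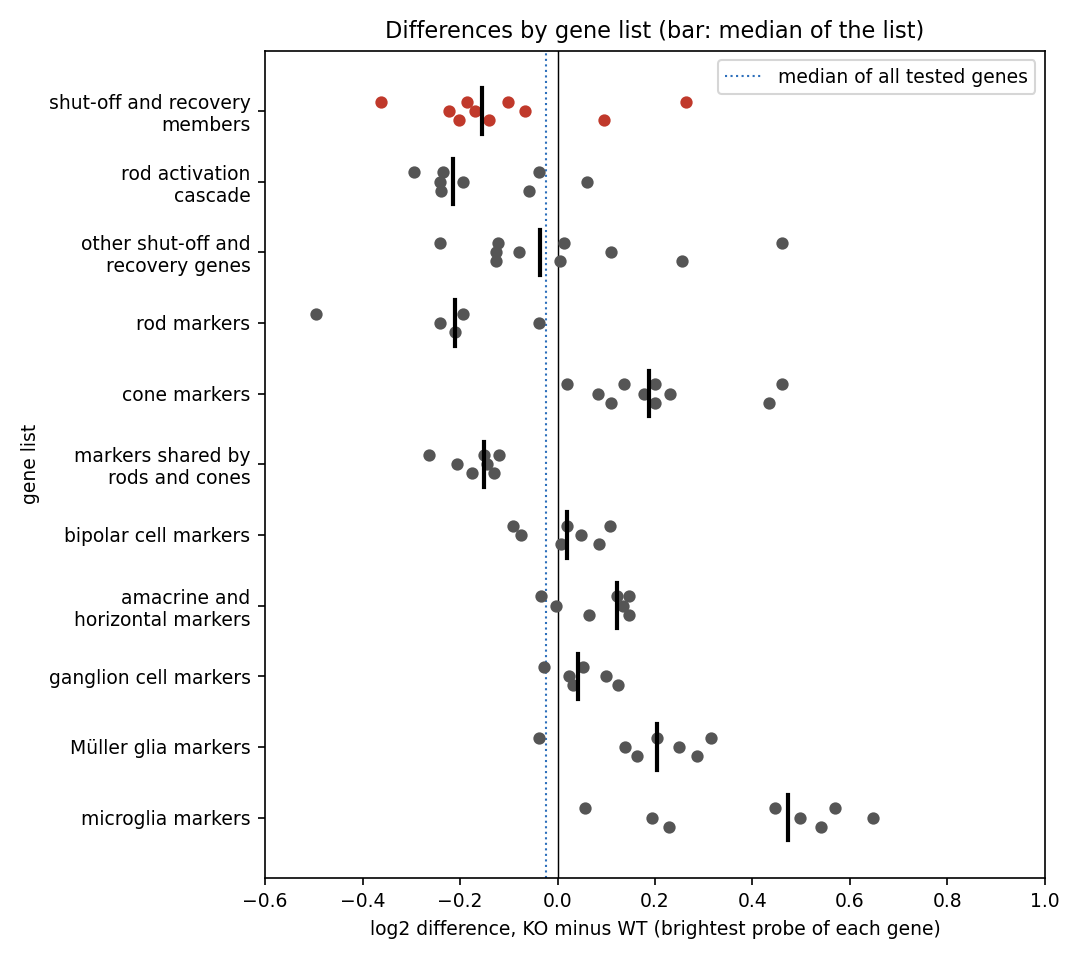
Log2 difference of KO minus WT by gene (points, brightest probe) for the 10 members, in red, and for other lists, in grey, with a bar at the median of each list and a dotted line at the median of all tested genes. The members (median -0.16) spread over both sides of 0, rod markers lie below 0, and cone and microglia markers lie above it.

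Markers of retinal cell types moved beside these genes, and their part in the differences was not tested. All 5 rod markers reported were below 0 and 1 fell, Nr2e3 (-0.50, SE 0.08, adjusted p = 0.0212). Gnat1, Cnga1 and Pde6b are in this list and in the rod activation cascade, so these lists share values. Summed, the rod markers stood at 9.65 to 9.71 in WT and 9.45 to 9.53 in KO. The 7 markers shared by rods and cones were all below 0, and 1 fell, Prph2, at its dimmer probe (-0.28, SE 0.05, adjusted p = 0.0297), while its brightest probe gave -0.26 (adjusted p = 0.167). Their summed level was 9.79 to 9.87 for WT and 9.46 to 9.71 for KO. All 10 cone markers were above 0, and 2 rose, Arr3 and Opn1sw (0.43, SE 0.09, adjusted p = 0.0401), and their summed level was at most 8.03 in WT and at least 8.15 in KO. All 8 microglia markers were above 0 and 5 rose, led by Tyrobp (0.65, SE 0.06, adjusted p = 0.0034) and followed by C1qc (0.57), C1qb (0.54), C1qa (0.50) and Aif1 (0.45). Their summed level was 3.28 to 3.38 in WT and 3.66 to 3.70 in KO. Of 7 Müller glia markers, Kcnj10 (0.31) and Apoe (0.29) rose, and the summed level was 7.83 to 7.88 for WT and 8.06 to 8.11 for KO. No bipolar, amacrine and horizontal, ganglion, pigment epithelium, lens or endothelial marker was called. The defining markers of rods, cones and the other neurons were well above background on every array, whereas Best1 of the pigment epithelium and Crybb2, Lim2 and Mip of the lens were too dim to be tested.

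Brightness moved with the differences as well. Among the 524 tested probes with a mean level of 6 or more, the median difference was -0.10 and 85.1% lay below 0, and the 4 member probes in this range, of Sag, Rcvrn, Guca1b and Pdc, ran from -0.36 to -0.17. Among the 20563 probes with a level below 0, where the Gucy2e probes lay by their mean, the median was -0.04. After quantile normalization the median of the brightest probes was 0.00, and Sag, Rcvrn, Guca1b and Pdc stood at -0.25, -0.03, -0.08 and -0.11 at their brightest probes. The Gucy2e probes moved little, to -0.13, -0.29 and -0.32. What part brightness had in the differences of the bright members was not tested.

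**Figure D4:**
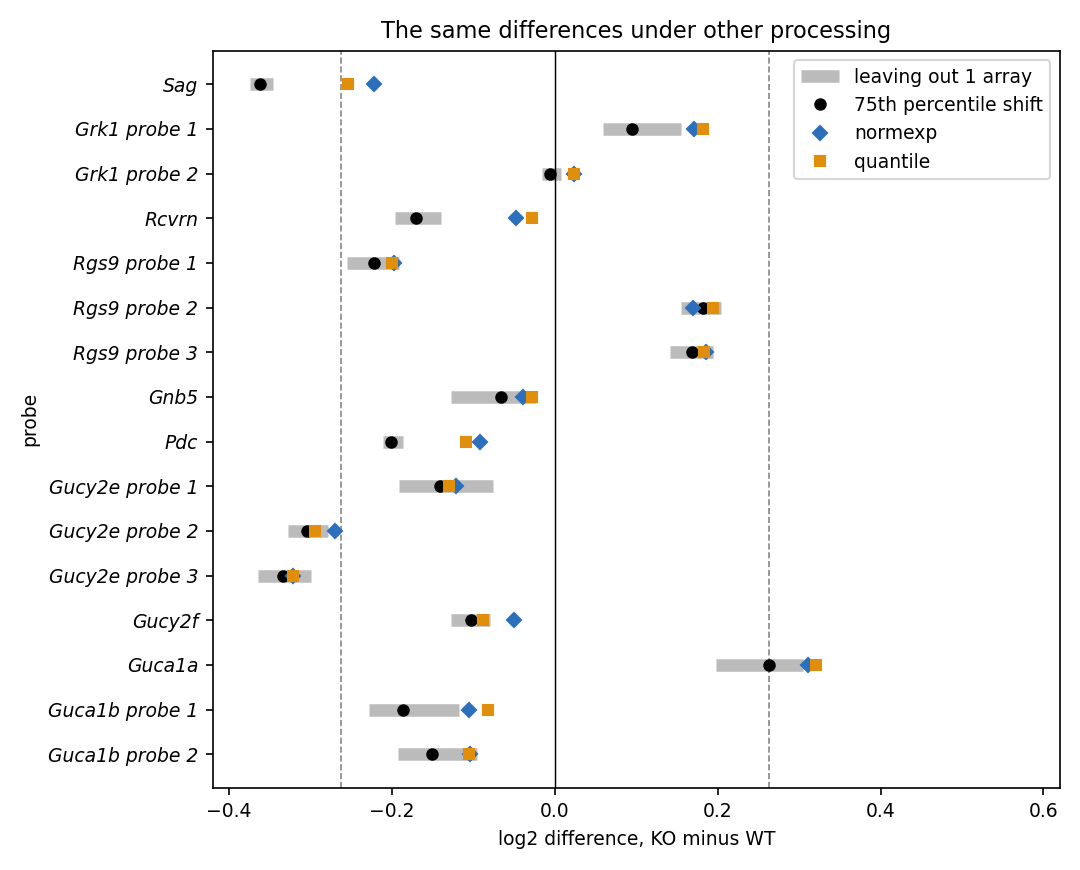
Log2 difference of KO minus WT for each member probe under the 75th percentile shift (black), quantile normalization (orange) and normexp background correction with quantile normalization (blue). A grey bar gives the range when 1 array was left out. Dashed lines mark a 1.2-fold difference. The bright probes of Sag, Rcvrn, Pdc and Guca1b shift toward 0 under both alternatives, which share the quantile step. The Gucy2e and Rgs9 probes stay close to their values.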

How the data were processed

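Per the labels and the methods of the study, total RNA of whole retina was labelled with Cy3, hybridised to Agilent SurePrint G3 arrays and read with Agilent Feature Extraction 10.7.1.1 (submitters' processing notes). The deposited scanner files hold processed signal intensity on a linear scale, background-subtracted and not scaled between arrays. The authors then applied a 75th percentile shift in GeneSpring, and their deposited table holds these log2 values, which lay a fixed offset per array (0.12 to 0.15) above the values used here and served as an alternative.

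Here, outlier spots were dropped (86 to 147 per array), repeated spots averaged, and each log2 signal set relative to the 75th percentile of 59305 noncontrol spots. No spot was saturated (0). Probes well above background on all 4 arrays of a genotype were tested (33972). Symbols came from a RefSeq gene table (GRCm38.p6) by transcript. They named 26413 of 55681 probes (47.4%). The array design used mm9, so that table gave names and neighbours, and coordinates are printed for RefSeq promoters alone. Genotypes, taken from the labels, were compared in limma 3.58.1 (lmFit, then eBayes; R 4.3.3) with no covariate, and p-values were adjusted by Benjamini-Hochberg across every tested probe. A gene counts as called if any probe passed both limits, 0.05 for the adjusted p and 1.2 for the fold. Pairs were compared by two-sided exact permutation.

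Named genes were all members with every probe, Lpcat1, the pair partners Arr3 and Gnb1, every gene of the rod activation and other recovery lists, and up to 5 called genes of each other list, those with the largest differences. Cell type markers too dim to be tested were also named. The members, the 19 other lists and the pairs were chosen with earlier results of these data known. Some listed genes are not reported here and enter none of the list counts or medians. Promoters were searched for 2 motifs, on both strands.

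On simulated data for KO against WT (33950 probes), limma called 18 of 50 probes changed by 0.3 on the log2 scale, 30 of 50 changed by 0.5, 47 of 50 changed by 1 and 50 of 50 changed by 2, with 9 unchanged probes. Alternatives were other scalings (median shift, quantile, cyclic loess, 75th percentile of detected probes, the authors' values) and normexp background correction (offset 50, on median signals) followed by quantile normalization. Further alternatives were other filters, thresholds and tests, array weights, a replicate block, averaging the probes of a gene, and omitting each array. With 1 slide and 1 scan in all, slide could not be a block.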

Additional observations from a re-analysis of the deposited data

Results flagged for a closer look

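Each of the 16 member probes was searched in both genotypes, giving 32 groups of 4 arrays, for a single array far from the others (Dixon's test at 95%). In 2 groups the farthest array stood apart. Chance flags about 1 in 20 groups. The dimmer Guca1b probe was highest in WT replicate 4, at 4.56, where the other WT arrays read 4.38 to 4.41. Without that array the difference of this probe moved from -0.15 to -0.11, with an adjusted p of 0.419. The brightest Gucy2e probe was lowest in KO replicate 3, at -0.31, where the other KO arrays read -0.15 to -0.12. Without that array its difference moved from -0.14 to -0.09, with an adjusted p of 0.535, while leaving out WT replicate 1 moved it to -0.08 (adjusted p = 0.543). Neither probe was called with or without these arrays.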

How the results depend on the processing

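The 2 called members, Sag and Gucy2e, both remained in all 8 fits that left out 1 array. Gucy2e was closer to the limit, since without KO replicate 2 its middle probe alone was called (limma adjusted p = 0.0498). The count of called members fell to 0 at a minimum fold of 1.5, to 1 (Sag) with no filter on dim probes and to 1 (Gucy2e) with quantile normalization. It rose to 3, with Guca1a added, under array weights, cyclic loess, limma with a trend and robust eBayes, and an adjusted p under 0.5, and normexp gave 2, with Guca1a in place of Sag. The number of called probes on the whole array moved from 992 to 3136 at an adjusted p under 0.5, 660 with a median shift, 138 at a minimum fold of 1.5 and 246 with no filter, and leaving out 1 array gave 391 to 1182. The dimmer Grk1 probe, near 0 throughout, turned from -0.01 to 0.013 with the 75th percentile of detected probes, 0.0055 with the authors' values, 0.022 with cyclic loess, 0.010 with the median shift, 0.023 with normexp and 0.023 with quantile normalization, and ran from -0.015 to 0.0070 (without KO replicate 2) when 1 array was left out. The median of the rod activation cascade moved from -0.21 to -0.13 with cyclic loess, -0.10 with normexp and -0.12 with quantile normalization. That of the other shut-off and recovery genes moved from -0.037 to -0.018 with the 75th percentile of detected probes, -0.020 with a median shift, 0.021 with cyclic loess, 0.0085 with normexp and 0.017 with quantile normalization, and from -0.054 to -0.020 when 1 array was left out. With the mean of a gene's probes, Sag relative to Arr3 was -0.86, Rcvrn relative to Grk1 -0.21, Guca1a relative to Guca1b 0.43 and Gucy2e relative to Gucy2f -0.16, and Rgs9 relative to Gnb5 was 0.11. All but the last had an adjusted exact permutation p of 0.0429, which was set by the smallest p the permutation allows. With the replicate number as a block, 395 probes were called, Sag and Gucy2e among them, and the adjusted p of Pdc passed from 0.0228 to 0.0602. The block lowered the SE of every member probe except the Sag probe and the dimmer Grk1 probe. For Gnb5 the SE went from 0.074 to 0.046, and no further member was called. The labels give both genotypes replicate numbers 1 to 4 and state no pairing. Same-numbered samples correlated at 0.249, 0.069, 0.037 and 0.112. Each KO sample correlated best with the WT sample of its number, as did WT replicates 1, 2 and 4 with KO. WT replicate 3 correlated best with KO replicate 4 (0.045), and whether samples were paired was not settled. Same-numbered samples also lay in the same column of the slide, so this block is a block on slide column as well. The causes of these shifts were not tested. Signal over background did not limit the members, whose probes were all well above background.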
